A study of Rattus norvegicus with 192 samples.

Results

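The genes described here are the heat shock chaperones and cochaperones Hspa8, Hsph1, Dnajb1, Hspb1, Hsp90aa1, Hsp90ab1, Dnaja1, Hspd1, Hspe1 and Bag3. They were chosen by name, and each was read from the row of the deposited table that carries its symbol. Of these 10 names 8 have a row, with 1 probe each among 22253 probes; Hsph1 and Hsp90ab1 are not analysed here. All 8 passed the filter on low counts (at least 1.741 CPM, counts per 1000000 counts of the library, in at least 6 libraries), which kept 11055 probes. Expression was measured by TempO-Seq, in which detector oligonucleotides ligated on an RNA target are amplified and counted, in cultured primary hepatocytes of male rats. Cells were exposed for 24 h, in 0.1% DMSO, to 29 chemicals at 6 doses each (from 0.14 or 0.4 µM up to 33.3 or 100 µM), to 9 reference chemicals at 1 dose, or to DMSO alone (9 libraries). Each treated group is 1 library. The column labels, read as plate wells, mostly place the doses of a chemical side by side in dose order. Dose and well position can therefore not be told apart. Nothing in the labels ties libraries to different animals or cultures, so the spread behind each p-value is that between these libraries and may be technical.

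Heat shock proteins bind unfolded polypeptides and help them fold, or pass them on for degradation. When unfolded proteins build up, heat shock factor 1 (HSF1) is released from chaperones, binds heat shock elements in promoters and raises transcription of these genes, and electrophiles and heavy metals can start the same programme. In the liver this response accompanies reactive metabolites and proteotoxic drugs. Hspa8 is the constitutive HSP70 of the cytosol, Dnaja1 and Dnajb1 are J-domain proteins that deliver substrates to it, and Bag3 is a nucleotide exchange factor that links it to autophagy. Hspb1 is a small heat shock protein, and Hsp90aa1 is the stress-inducible form of cytosolic HSP90. Hspd1 and Hspe1 are the HSP60 and HSP10 chaperonins of the mitochondrial matrix, so the name "cytosolic" does not apply to these members. Hspa1a, the classical inducible HSP70, was not chosen as a member; it is read beside them as a gene of the same pathway, and its near-identical copy Hspa1b makes it uncertain which of the pair its probe counts.

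The promoters of the members are shown because heat shock elements, the sites of HSF1, are arrays of the letters GAA in alternating orientation. RefSeq promoter windows of build GRCr8 (250 bases before to 50 bases after the start) were matched by symbol for 7 of the 8 measured members, all but Hsp90aa1. Capitals mark every match to GAANNTTC or TTCNNGAA, each of which reads the same on both strands, and overlapping matches join into longer runs. A run of 3 units (GAANNTTC followed by NNGAA, on either strand) was found in 0.798% of 33469 promoter windows, GAANNTTC in 8.59%, TTCNNGAA in 8.77% and either pair in 15.9%.
Hspa8 (chr8:50080264-50080563, plus strand): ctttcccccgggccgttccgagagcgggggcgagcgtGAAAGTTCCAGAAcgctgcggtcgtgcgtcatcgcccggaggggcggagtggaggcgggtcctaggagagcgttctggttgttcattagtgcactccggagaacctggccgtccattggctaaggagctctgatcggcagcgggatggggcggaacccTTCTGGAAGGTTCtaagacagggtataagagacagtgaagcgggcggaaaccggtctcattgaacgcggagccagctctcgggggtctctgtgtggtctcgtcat
Dnaja1 (chr5:60638154-60638453, plus strand): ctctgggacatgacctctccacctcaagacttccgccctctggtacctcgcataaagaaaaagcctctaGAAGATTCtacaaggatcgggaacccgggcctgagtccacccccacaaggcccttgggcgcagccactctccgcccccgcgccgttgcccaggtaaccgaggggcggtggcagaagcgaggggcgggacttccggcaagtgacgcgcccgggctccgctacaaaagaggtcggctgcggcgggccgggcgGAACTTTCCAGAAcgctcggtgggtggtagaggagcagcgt
Dnajb1 (chr19:41431092-41431391, minus strand): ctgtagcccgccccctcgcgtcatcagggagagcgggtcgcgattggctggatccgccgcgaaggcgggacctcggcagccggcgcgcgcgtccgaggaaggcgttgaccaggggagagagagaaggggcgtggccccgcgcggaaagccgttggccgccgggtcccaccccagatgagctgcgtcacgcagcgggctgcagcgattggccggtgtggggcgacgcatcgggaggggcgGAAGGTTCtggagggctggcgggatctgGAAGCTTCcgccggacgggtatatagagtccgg
Bag3 (chr1:192533210-192533509, plus strand): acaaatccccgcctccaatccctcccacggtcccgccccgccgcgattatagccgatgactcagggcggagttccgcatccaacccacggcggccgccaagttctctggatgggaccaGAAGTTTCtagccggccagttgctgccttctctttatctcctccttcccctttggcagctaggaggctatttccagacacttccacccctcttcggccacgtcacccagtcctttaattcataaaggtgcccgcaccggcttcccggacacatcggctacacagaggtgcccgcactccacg
Hspb1 (chr12:26432252-26432551, minus strand): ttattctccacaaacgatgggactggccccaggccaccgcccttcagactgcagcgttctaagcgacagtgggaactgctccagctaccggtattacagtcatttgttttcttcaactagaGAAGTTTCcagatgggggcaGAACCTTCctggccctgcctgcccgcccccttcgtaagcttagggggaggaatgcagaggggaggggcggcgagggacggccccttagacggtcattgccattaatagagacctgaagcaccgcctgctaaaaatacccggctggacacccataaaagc
Hspd1 (chr9:64083988-64084287, minus strand): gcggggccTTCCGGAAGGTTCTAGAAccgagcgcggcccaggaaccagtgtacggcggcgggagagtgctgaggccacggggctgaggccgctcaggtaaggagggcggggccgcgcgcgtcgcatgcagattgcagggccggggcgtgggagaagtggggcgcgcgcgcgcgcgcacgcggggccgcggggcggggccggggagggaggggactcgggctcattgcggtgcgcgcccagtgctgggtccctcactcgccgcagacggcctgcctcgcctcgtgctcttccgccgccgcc
The Hspa8 window holds 2 runs of 3 units and the Dnaja1 window 1. Hspd1 and Hspe1 are transcribed head to head from starts 290 bases apart, and their windows share 211 bases, among them the 2 overlapping runs of 3 units in capitals above. Dnajb1 and Hspb1 have 2 matches to GAANNTTC and Bag3 has 1, with no run of 3 units in these windows. The window of Hspa1a held no match. Bases outside a window were not searched, and whether the annotated start is the one used in these cells was not checked. A match is a description of these letters and shows no binding.

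Library totals ran from 582071 to 11249014 counts (median 5745085), and the shallowest library is sulforaphane. DMSO replicate 1 stood apart from the other DMSO libraries and was kept out of the controls, which are replicates 2 to 9 (8 libraries). A library score, the position of each library on the line from DMSO replicates 4 and 6 to replicate 5, computed without the members, was above 0.5 in 11 treated libraries. Sums of hepatocyte markers were 32700 to 52260 CPM in the controls and 16290 to 52380 CPM in treated libraries. Markers of other liver cells were low: macrophage markers summed to 44.5 to 80.7 CPM in the controls, with Ptprc and Adgre1 under 1 CPM, endothelial markers to 9.39 to 17.7 CPM and stellate cell markers to 2.13 to 5.75 CPM. Fewer cells of a type and less RNA per cell cannot be told apart in these bulk libraries.

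In the 8 DMSO controls Hspa8 lay at 9989 ± 658 CPM (SD, n = 8) and its cochaperones Dnaja1 at 1596 ± 74.7, Dnajb1 at 16.3 ± 4.20 and Bag3 at 113 ± 36.9 CPM. Hspb1 was read at 185 ± 29.8 CPM and Hsp90aa1 at 91.6 ± 8.95 CPM, and the mitochondrial pair at 227 ± 36.2 CPM (Hspd1) and 39.5 ± 9.41 CPM (Hspe1). CPM is not scaled for probe efficiency or length, so levels of different genes are not compared. Relative spread between controls was smallest for Dnaja1 (coefficient of variation 4.68%) and Hspa8 (6.59%) and largest for Bag3 (32.6%) and Dnajb1 (25.8%). DMSO replicate 5 held the extremes of both of these genes, the highest Bag3 (193 CPM) and the lowest Dnajb1 (6.95 CPM).

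**Figure D1:**
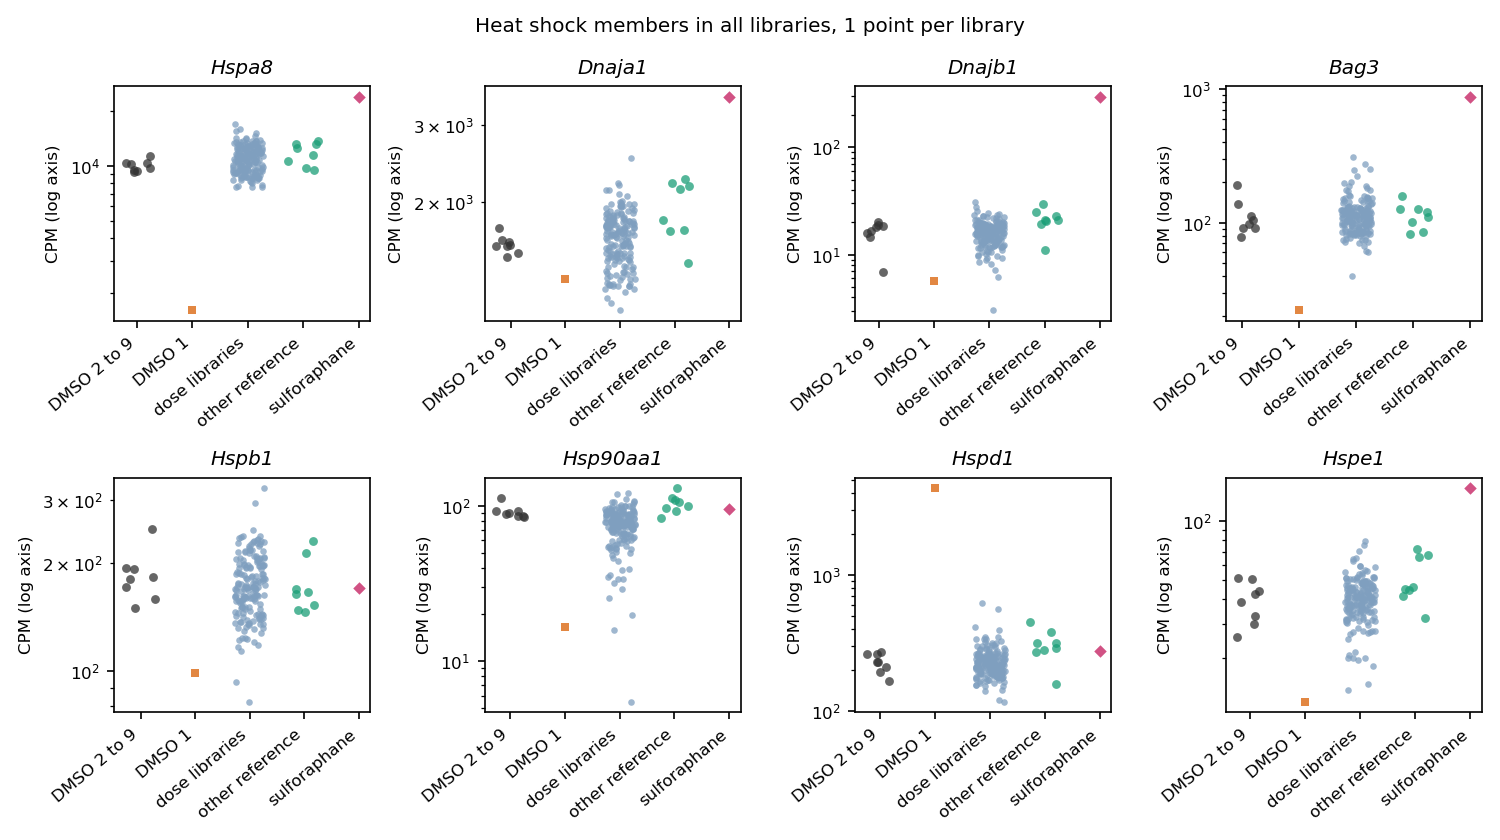
CPM of each member (log axis, 1 point per library) in DMSO replicates 2 to 9, DMSO replicate 1, the 174 dose libraries, the other reference libraries and sulforaphane. Sulforaphane is the highest library for Hspa8, Dnaja1, Dnajb1, Bag3 and Hspe1 but not for Hspb1, Hsp90aa1 or Hspd1, and DMSO replicate 1 lies outside the other DMSO libraries for every member.

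Sulforaphane, an isothiocyanate electrophile used as an activator of NRF2, had the most member calls among the reference libraries. Its single library at 10 µM held 297 CPM of Dnajb1, against 6.95, 17.5 and 20.4 CPM (lowest, median and highest) in the controls. Bag3 stood at 874 CPM against 77.7, 101 and 193 CPM, and Hspe1 at 148 CPM against 25.7, 40.6 and 51.2 CPM. Hspa8 reached 23842 CPM, where the controls lay between 9226 and 11250 CPM with a median of 9978 CPM, and Dnaja1 reached 3494 CPM against 1496, 1587 and 1744 CPM. Each of these values is above every control and, as the plot by library kind shows, above every other treated library. The remaining members did not leave the controls by much: Hspb1 was at 170 CPM and Hsp90aa1 at 96.2 CPM, inside the range of the controls, and Hspd1 at 277 CPM was just above their highest value of 269 CPM.

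In edgeR's quasi-likelihood test, with p adjusted over 11055 probes (Benjamini-Hochberg, threshold 0.05), 5 of the 8 members rose with sulforaphane and 0 fell, where 9.93% of all probes rose and 18.5% fell. The median log2 change of the members was 1.56 and that of all probes was -1.07. Dnajb1 rose by 4.81 ± 0.36 on the log2 scale (SE; adjusted p = 4.6e-05), Bag3 by 3.12 ± 0.38 (adjusted p = 0.000507) and Hspe1 by 2.31 ± 0.33 (adjusted p = 0.00113). Hspa8 rose by 1.58 ± 0.16 (adjusted p = 0.000236) and Dnaja1 by 1.54 ± 0.15 (adjusted p = 0.000187). Changes of 0.80 ± 0.27 for Hspd1 (adjusted p = 0.0514), 0.50 ± 0.24 for Hsp90aa1 and 0.11 ± 0.27 for Hspb1 did not pass. Scaling matters in this library, where 15.9% of probes had a CPM above the range of the controls and 63.0% below it. On plain CPM the ratios to the mean of the 8 controls are lower, 18.3-fold for Dnajb1, 7.75-fold for Bag3 and 3.74-fold for Hspe1. Hspa8 is then at 2.39-fold and Dnaja1 at 2.19-fold, and Hspb1 turns to 0.921-fold. These ratios differ from the fitted changes in their controls as well as in scaling, because the fit uses the controls of the own plate. Sums of stellate (37.8 CPM, all of it Col3a1) and bile duct markers (127 CPM, with Epcam at 118 CPM) were the highest of the treated libraries and those of endothelial markers (1.72 CPM) the lowest; their part in the result was not tested. The rise of Hspa8 ended with DMSO replicate 1 among the controls (adjusted p = 0.0786), while the other 4 calls held under all 13 alternatives.

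Other genes of the pathway were called with sulforaphane as well, beside the shares of all probes given above (9.93% rose and 18.5% fell). Among 13 tested HSP70, HSP110 and J-domain genes outside the members 6 rose and 2 fell, with a median of 0.70. Hspa1a was read at 526 CPM against 19.8 to 33.3 CPM in the controls and rose by 4.57 ± 0.26 (adjusted p = 1.1e-05), Hspa2, a testis-enriched HSP70, by 6.52 ± 0.66 and the J-domain gene Dnaja4 by 1.82 ± 0.23. Of 13 HSP90 and HSP70 cochaperones 6 rose and 1 fell; the strongest calls were Ahsa1, the activator of the HSP90 ATPase, at 1.72 ± 0.16, the nucleotide exchange factor Bag1 at 1.60 ± 0.18 and Ptges3 (p23) at 2.21 ± 0.27. The cytosolic chaperonin TRiC had 1 rise among 5 genes (Cct5, 0.68 ± 0.22), and chaperones of the endoplasmic reticulum 1 among 7 (the lectin chaperone Canx, 0.94 ± 0.18). Mitochondrial chaperones and proteases split, with 2 of 9 up (Hspa9, the matrix HSP70, 1.05 ± 0.18) and 2 down (Trap1, the matrix HSP90, -0.97 ± 0.25, and the protease Htra2, -1.83 ± 0.61). The lens crystallin Cryab fell by 2.65 ± 0.44, alone among 3 small heat shock genes, and 0 of 3 heat shock factor genes passed in edgeR (0 at an unadjusted p under 0.05, and 0 in DESeq2), where Hsf1 itself stood at an adjusted p of 0.539. The calls of Cct5 and Htra2 were each lost under 9 of 13 alternatives, 6 of them the loss of a single control. Counts in this library were low for Hspa2 (34, with 0.235 to 1.38 CPM in the controls), Cryab (6) and Htra2 (4). The TRiC, endoplasmic reticulum, mitochondrial, small heat shock and heat shock factor lists hold few genes each. Their counts of calls do not set them apart from all probes.

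The other 8 reference libraries gave 0 calls of a member in edgeR (7 at an unadjusted p under 0.05) and 0 in DESeq2. Over all 9 reference libraries 1.31% of probe and library pairs rose and 2.35% fell. Most of these pairs came from sulforaphane, so the shares of the other 8 were lower, and 0 calls does not set the members apart. Hspd1 with WY-14,643, an agonist of PPARα, came nearest in size: it stood at 452 CPM, the highest of the 9 reference libraries, and its change of 1.004 ± 0.25 did not pass (adjusted p = 0.207). With GW 4046 at 1.5 µM Hspa1a was at 107 CPM, above all controls, and rose by 1.77 ± 0.27 (adjusted p = 0.0238, where 0.344% of probes rose and 0.606% fell), a call that ended without DMSO replicate 4, 6, 8 or 9 (adjusted p = 0.0543 to 0.0893). Hspa1a also lay above all controls in 114 of 174 dose libraries, where 11.2% of all probe and library pairs did. With oltipraz, an NRF2 activator of another structure, the members had changes between -0.26 and 0.56 and no call. In CPM, Hspa8 (13060), Dnaja1 (2208), Hspd1 (316), Hspe1 (66.0), Hsp90aa1 (130) and Dnajb1 (20.42 against at most 20.36) were above every control there, as were 28.2% of probes. Hspb1 and Bag3 lay within the controls. Neither the lack of a call nor values above the controls in 1 library settle whether these genes changed.

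Over the 29 dose trends 5 of 232 member tests passed, all of them rises, where 0.95% of all probe and chemical pairs rose and 0.713% fell. They came from dithiopyr (Hspa8, Dnaja1 and Bag3), imazalil (Hspd1) and PFOA (Hspd1). A trend is the slope on log2(1 + dose in µM), and its value is given for 33.3 µM on the log2 scale. Tested as single libraries, the 29 highest doses gave 11 calls, 7 up and 4 down, against 1.79% and 2.48% of all pairs, and 27 calls without DMSO replicate 5. All of these calls ended when DMSO replicate 1 was counted as a control.

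**Figure D2:**
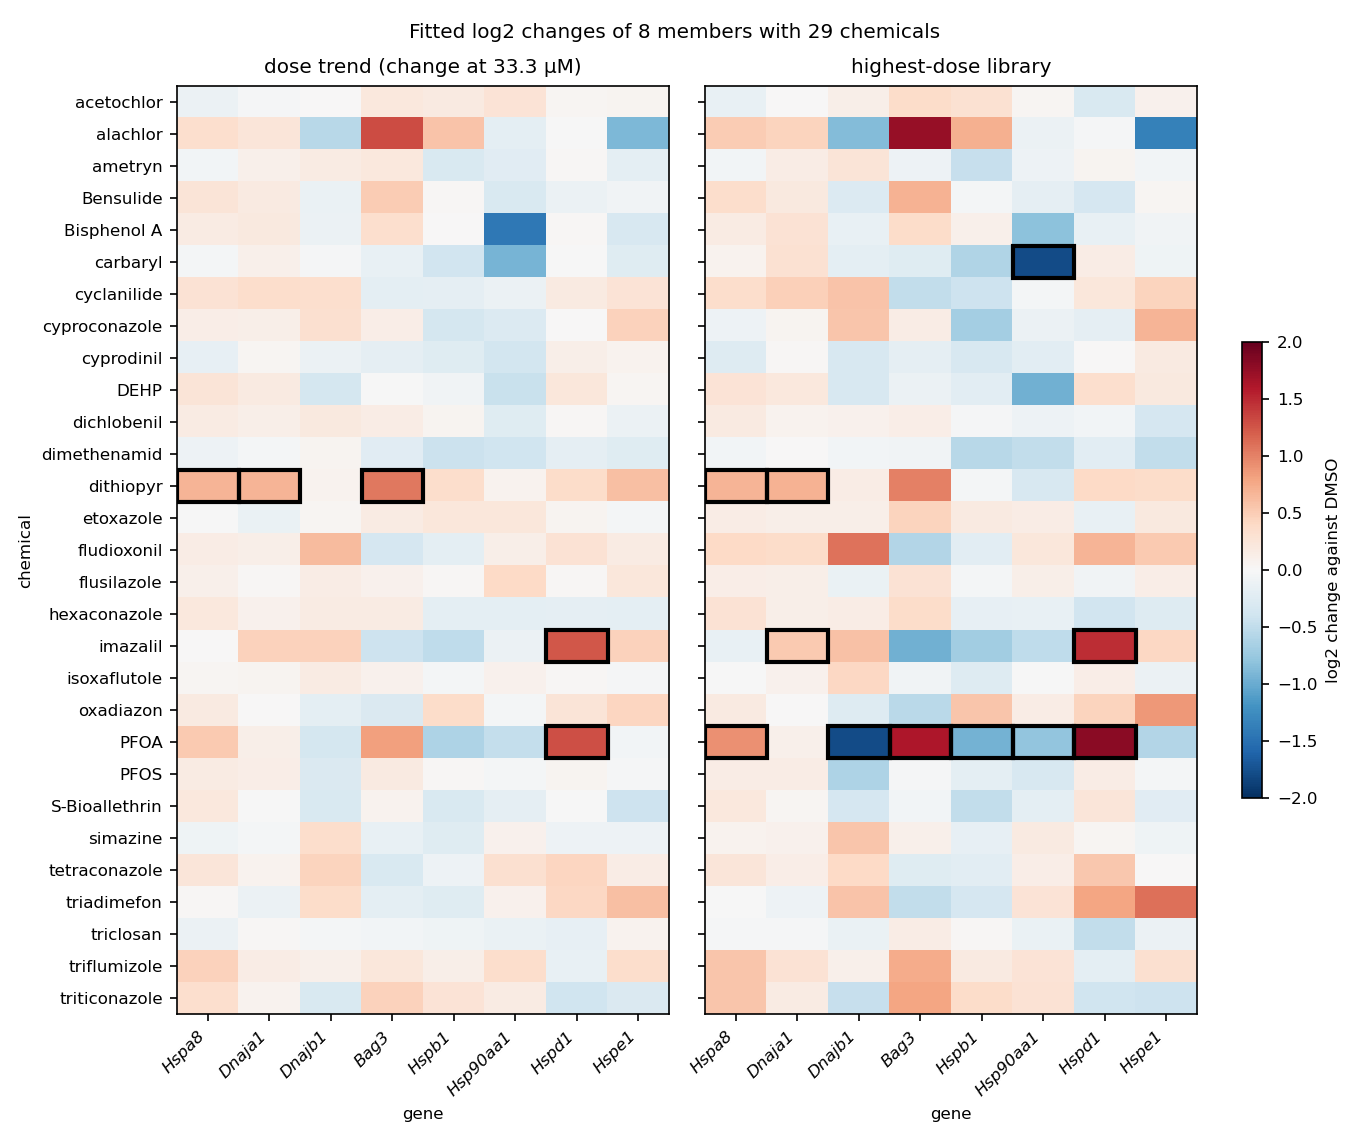
Fitted log2 change of each member (columns) with each of 29 chemicals (rows), as a dose trend (left) and in the highest-dose library (right), coloured from -2 (blue) to 2 (red); black frames mark an adjusted p under 0.05 in edgeR. The frames cluster in the rows of dithiopyr, imazalil and PFOA, with carbaryl adding Hsp90aa1.

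Dithiopyr, a pyridine herbicide that disturbs microtubules in plants, came with a graded rise of the HSP70 system. From 0.14 to 33.3 µM the 6 libraries held 8563, 9032, 8792, 11233, 13002 and 15848.5 CPM of Hspa8. Dnaja1 followed the same course with 1483, 1524, 1413, 1882, 2207 and 2521 CPM, the last being the highest of all 174 dose libraries. Bag3 went from 86.7 and 60.9 CPM at 0.14 and 0.4 µM through 78.9 and 103 to 142 and 181 CPM. At the top 2 doses Hspa8 was above every control, Dnaja1 was so at the top 3, and Hspd1 and Hspe1 were so at the top 3 as well. The 3 lowest doses had Hspa8 below every control (9226 CPM and up), so the climb starts from under the control level. Bag3 was below every control at 0.4 µM and inside their wide range at the other doses. The 33.3 µM library also had the lowest hepatocyte marker sum of all treated libraries, 16290 CPM against at least 32700 CPM in the controls, and its part in the trends was not tested. Trends were 0.68 ± 0.14 for Hspa8 (adjusted p = 0.00666), 0.68 ± 0.13 for Dnaja1 (adjusted p = 0.00393) and 1.06 ± 0.30 for Bag3 (adjusted p = 0.0326) in edgeR, where 6.25% of probes rose with this chemical and 6.73% fell. All 8 members had a fitted value above 0, with a median of 0.48 against -0.012 for all probes. Hspe1, at 62.7, 70.4 and 59.3 CPM over the top 3 doses, had 0.60 ± 0.27 and did not pass (adjusted p = 0.151), nor did Hspd1 (0.36), Hspb1 (0.35), Dnajb1 (0.07) or Hsp90aa1 (0.06).

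Other genes of the pathway were called with dithiopyr too, beside 6.25% of all probes that rose and 6.73% that fell. Hspa1a climbed over 32.9, 29.4, 26.0, 39.0, 57.2 and 73.2 CPM and rose by 1.32 ± 0.23 (adjusted p = 0.00199), and Hspa4, an HSP110-type exchange factor, rose by 0.80 ± 0.13, the 2 calls among 13 genes of that list. Cochaperones gave 3 rises of 13, the immunophilin Ppid (1.31 ± 0.15), Ahsa1 (0.83 ± 0.14) and Tomm34 (0.55 ± 0.16). The gene of the regulator itself, Hsf1, rose by 0.91 ± 0.24 (adjusted p = 0.0219), a call lost under 5 of 22 alternatives, among them no plate term (0.58, adjusted p = 0.135). Endoplasmic reticulum chaperones went the other way, with 3 of 7 falling: Hsp90b1 (GRP94) by 1.50 ± 0.26, Calr by 1.46 ± 0.38 and Dnajc3 by 0.94 ± 0.29. Tomm34 lost its call under 6 of the 22 alternatives and turned sign under another, and Dnajc3 lost its call under 10. Without the highest dose the trends of Hspa8 (0.55, adjusted p = 0.338), Dnaja1 (0.64, adjusted p = 0.205) and Bag3 (0.90, adjusted p = 0.487) kept their sign and did not pass. Bag3 also lost its call without the 0.4 µM library (adjusted p = 0.0578), the 11.1 µM library (0.0588) or DMSO replicate 3 (0.0629), and without the plate term (0.52, adjusted p = 0.332). With doses scored by rank neither Hspa8 (0.60, adjusted p = 0.0655) nor Bag3 (0.89, adjusted p = 0.131) passed.

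The trend of Hspd1 passed with imazalil, an imidazole fungicide, and with PFOA, a perfluorinated carboxylic acid. With imazalil it was read at 229, 190, 216, 244, 211 and 618 CPM from 0.14 to 33.3 µM, so that only the highest dose left the range of the controls (167 to 269 CPM). That library is the highest of all 174 for this gene, and its fitted change was 1.48 ± 0.27 (adjusted p = 0.0037 in edgeR). In the same library hepatocyte markers summed to 16530 CPM, below every control, and macrophage markers to 150 CPM against at most 80.7 CPM in the controls, the highest of all treated libraries (Cd68 at 123 CPM); their part in the calls was not tested. The trend of 1.24 ± 0.31 (adjusted p = 0.0244, where 7.68% of probes rose and 2.87% fell) rests on the same library: without it the value was -0.06. The trend did not pass without DMSO replicate 2 (adjusted p = 0.0501) or with doses scored by rank (1.01, adjusted p = 0.171). Hspe1, which shares its promoter region, was at 53.2 CPM in that library against a highest control of 51.2 CPM and did not pass (0.42 ± 0.34). Dnaja1 rose at 33.3 µM by 0.52 ± 0.17 (adjusted p = 0.0412), a call lost without 7 of the 8 controls in turn (adjusted p = 0.0513 to 0.159). Bag3 had its lowest value among dose libraries there, 39.9 CPM, with a change of -0.96 ± 0.47 that did not pass (adjusted p = 0.145).

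At 33.3 µM imazalil 13.7% of probes rose and 15.9% fell, and 3 of the 7 pathway lists held calls in both directions. Of the mitochondrial list 2 of 9 genes rose, Hspa9 (1.43 ± 0.18) and the protease Lonp1 (1.01 ± 0.30, lost under 5 of 13 alternatives), and Trap1 fell by 1.24 ± 0.23. Of the cochaperones 6 of 13 rose, led by Ppid (1.88 ± 0.18) and Bag2 (1.49 ± 0.25), and Fkbp4 fell by 1.72 ± 0.37. Both rises among the 5 TRiC genes were subunits, Cct5 (1.32 ± 0.22) and Cct2 (0.97 ± 0.26). All 3 tested small heat shock genes outside the members fell, with Cryab at -3.29 ± 0.34. Of these, Hspb2 and Hspb6 had 1 count each in this library, and each call was lost under 3 of 13 alternatives, among them DESeq2. Endoplasmic reticulum chaperones fell at 3 of 7, among them Hyou1 by 1.60 ± 0.23.

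PFOA gave Hspd1 117, 218, 214, 326, 290 and 558 CPM from 0.4 to 100 µM. The top 3 doses lay above every control and the lowest dose below every control. Its trend was 1.28 ± 0.23 (adjusted p = 0.00906), where 2.58% of probes rose and 1.17% fell, and ended as a call without the highest dose (0.77, adjusted p = 0.236) and without the 11 libraries of high score (0.82, adjusted p = 0.248). Of the same chemical's 9 mitochondrial chaperone and protease genes 2 rose in the trend, Lonp1 (1.04 ± 0.20) and Hspa9 (0.70 ± 0.14), both calls that also ended without the highest dose. The chaperonin partner Hspe1 had a trend of -0.06 ± 0.28 (adjusted p = 0.921), with 18.3 CPM at the lowest dose, 36.5 to 40.2 CPM at the doses between and 19.96 CPM at the highest.

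In the 100 µM PFOA library 3 of the 8 members rose and 3 fell, where 16.8% of probes rose and 21.1% fell. Hspd1 rose by 1.81 ± 0.25, Hspa8 by 0.92 ± 0.17 (15142 CPM) and Bag3 by 1.62 ± 0.39 (310 CPM, the highest of all dose libraries). Among the falls, that of Dnajb1 rests on 7 counts in this library. Dnajb1 fell by 1.80 ± 0.63 (3.04 CPM, the lowest of all dose libraries), Hspb1 by 0.94 ± 0.27 (82.4 CPM) and Hsp90aa1 by 0.79 ± 0.24 (39.5 CPM), all by edgeR with adjusted p = 0.00101 to 0.0472. The library also has the highest library score of the series (1.83), and its median probe changed by -0.30 with TMM scaling and by -0.18 with DESeq2 size factors, which ended the call of Dnajb1 (adjusted p = 0.0639); that call was also lost without DMSO replicate 2, 3, 4, 6, 7, 8 or 9 (adjusted p = 0.0556 to 0.0939). Hsp90aa1 lost its call without DMSO replicate 4 (adjusted p = 0.0536) and in DESeq2 (0.0533), and Hspb1 without the plate term (0.0507). In the pathway lists 5 of 9 mitochondrial genes rose and 2 fell, and the matrix protease gene Clpp (1.73 ± 0.20) had the smallest adjusted p. Hspa1a fell by 1.50 ± 0.40 and the J-domain gene Dnajb4 fell by 3.46 ± 0.46, while Hsf1 (0.85 ± 0.26, lost under 4 of 13 alternatives) and its binding protein gene Hsbp1 (1.36 ± 0.29) rose. TRiC fell at 3 of 5 subunits and endoplasmic reticulum chaperones at 3 of 7, with Cct7 at -2.77 ± 0.42 and Canx at -1.92 ± 0.21.

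PFOS and PFOA are perfluorinated acids, PFOS a sulfonic and PFOA a carboxylic acid, and the pair was compared at the 6 doses both have. PFOS held Hspd1 at 221, 219, 153, 231, 204 and 248 CPM from 0.4 to 100 µM, inside the controls at all doses but 3.7 µM. The trend of Hspd1 was lower with PFOS than with PFOA by 1.02 ± 0.24 (95% interval -1.52 to -0.52, adjusted p = 0.0188). Hspb1 ran at 170, 175, 183, 209, 227 and 193 CPM with PFOS and at 157, 157, 119, 130, 135 and 82.4 CPM with PFOA, no dose of PFOS being as low as any of PFOA, and its trend was higher with PFOS by 0.67 ± 0.17 (0.32 to 1.02, adjusted p = 0.0292). These were 1 rise and 1 fall among 8 members, where 1.56% of probes had a higher and 2.46% a lower trend. Without the 100 µM libraries neither passed (Hspd1 -0.69, adjusted p = 0.191, and Hspb1 0.76, adjusted p = 0.0673), and without the libraries of high score Hspd1 did not (-0.62, adjusted p = 0.109). The other members differed by -0.31 to 0.35, with intervals reaching from -1.16 to 0.71. Hspa1a, at 45.8 CPM in the highest PFOS library and 7.81 CPM in that of PFOA, was higher with PFOS by 1.12 ± 0.23 (adjusted p = 0.00696), and did not pass without the 100 µM libraries (0.90, adjusted p = 0.0598).

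In all 4 comparisons of related chemicals were made, each adjusted over probes and not over the comparisons, and the other 3 gave 0 member calls in edgeR (1, 0 and 1 of 8 at an unadjusted p under 0.05, and 0 in DESeq2). Over all 4, 0.445% of probe and pair tests were higher and 0.651% lower. The chloroacetamide herbicides acetochlor and alachlor differ in alkyl groups on the ring and the ether. Between them Bag3 differed by -0.86 (95% interval -1.72 to 0.00, adjusted p = 0.267) and Hspe1 by 0.58 (-0.11 to 1.27). Their highest doses read 247 CPM of Bag3 with alachlor, whose library scores 1.19, and the single-library change of 1.75 ± 0.42 did not pass (adjusted p = 0.0561), nor did the -1.35 ± 0.38 of Hspe1 at 14.8 CPM (adjusted p = 0.0623). Ametryn and simazine are triazines, of which ametryn carries a methylthio group where simazine carries chlorine and which also differ in an alkyl group, and their largest difference was again Bag3 (0.56, -0.50 to 1.63). Imidazoles (imazalil and triflumizole) against triazoles (flusilazole, tetraconazole and hexaconazole) differed most in Hspd1 (0.42, 0.05 to 0.79, adjusted p = 0.334). The intervals of the members in these pairs reach from -1.72 to 1.63 on the log2 scale, so likeness of the compounds is not shown.

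With cyproconazole at 100 µM, Hspa1a rose and no member passed the test. Hspa1a stood at 339 CPM in that library, while the 5 lower doses gave 27.9, 27.3, 25.5, 29.8 and 20.5 CPM from 0.4 to 33.3 µM, all within the controls. The change was 3.52 ± 0.26 (adjusted p = 3.2e-05 in edgeR), and the trend of 2.16 ± 0.43 (5.83% of probes rose and 3.11% fell) was -0.35 without that library. Members in the same library had changes between -0.68 (Hspb1, 132 CPM) and 0.68 (Hspe1, 64.2 CPM) and 0 of 8 passed (1 at an unadjusted p under 0.05, and 0 in DESeq2), where 12.7% of probes rose and 17.2% fell. Dnajb1 was at 20.9 CPM, Hspa8 at 9982 CPM and Bag3 at 150 CPM there. Hepatocyte markers summed to 19710 CPM in this library, below every control, and endothelial markers to 29.1 CPM, the highest of the treated libraries; their part was not tested. Calls in the lists went both ways. Rises included Bag2 (2.67 ± 0.23), Hspa4 (1.11 ± 0.16), Hspa9 (1.23 ± 0.17), Lonp1 (1.83 ± 0.29), the endoplasmic reticulum HSP70 gene Hspa5 (1.39 ± 0.25) and Hsf1 (1.10 ± 0.26). Falls included Cryab (-2.87 ± 0.36), Trap1 (-1.11 ± 0.23) and the small heat shock gene Hspb2 (-6.87 ± 2.32). Hspb2 had 0 counts in this library, and its call was lost under 10 of 13 alternatives. Hspa1a was high in the sulforaphane and the cyproconazole library, and Dnajb1 was 297 CPM in the first and 20.9 CPM in the second; the difference between these libraries was not tested.

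Hsp90aa1 was the member that most often lay low. Of 174 dose libraries 122 were below the lowest control (84.5 CPM) and 2 above the highest, where 11.5% and 11.2% of all probe and library pairs were. DMSO replicate 1, which had no treatment, read 16.5 CPM, and with it among the controls 2 dose libraries are below the range in place of 122. At the lowest dose of the 29 chemicals 19 libraries were already below it (9.05% of all pairs). Its lowest value was 5.49 CPM, with bisphenol A at 11.1 µM, where the lower doses from 0.14 µM up gave 91.1, 33.99, 83.7 and 15.9 CPM and the highest 50.5 CPM. These values do not follow dose, and the trend of -1.44 ± 0.73 did not pass (adjusted p = 0.53), although without the highest dose it was called. With carbaryl, an insecticide of the carbamate class, Hsp90aa1 read 62.1, 66.2, 62.6, 69.4, 53.1 and 25.6 CPM from 0.4 to 100 µM, and the fall of 1.78 ± 0.24 in the 100 µM library passed (adjusted p = 0.00528, where 0.335% of probes rose and 1.66% fell).

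Such low values came with other probes. Of 7110 probes with a mean log2 CPM above 3, 89 followed Hsp90aa1 with a Pearson correlation above 0.8 over the libraries without DMSO replicate 1, against 8 for Bag3, 1 for Hspd1 and 0 for each other member. The genes nearest to Hsp90aa1 were Prdx6, a peroxiredoxin, and Tmem33 (r = 0.926 and 0.92), and Arpc3, Slc17a3 and others that are no heat shock genes came close behind. Partners were chosen again without bisphenol A, carbaryl and PFOA, which left 173 libraries and 34 probes above 0.8, the TRiC subunit Cct7 among them. In the carbaryl 100 µM library all 34 were lower than in the controls, with a median log2 difference of -2.68, beside -1.82 for Hsp90aa1 and -0.03 for the median of all probes. In bisphenol A at 11.1 µM their median was -5.53 and at 3.7 µM -3.56. In all, 12 treated libraries had less than 50% of the lowest control value of Hsp90aa1, 10 of them at a dose below the chemical's highest. In the 5 of these that the choice of partners left out, the partner median lay between -5.53 and -1.61, against -0.26 to 0.08 in the controls. The other 7 (-3.64 to -2.09) were among the libraries that chose the partners, so their low partners follow from the choice. The partners were chosen on these data after the values were seen, and what moves them together was not tested.

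**Figure D3:**
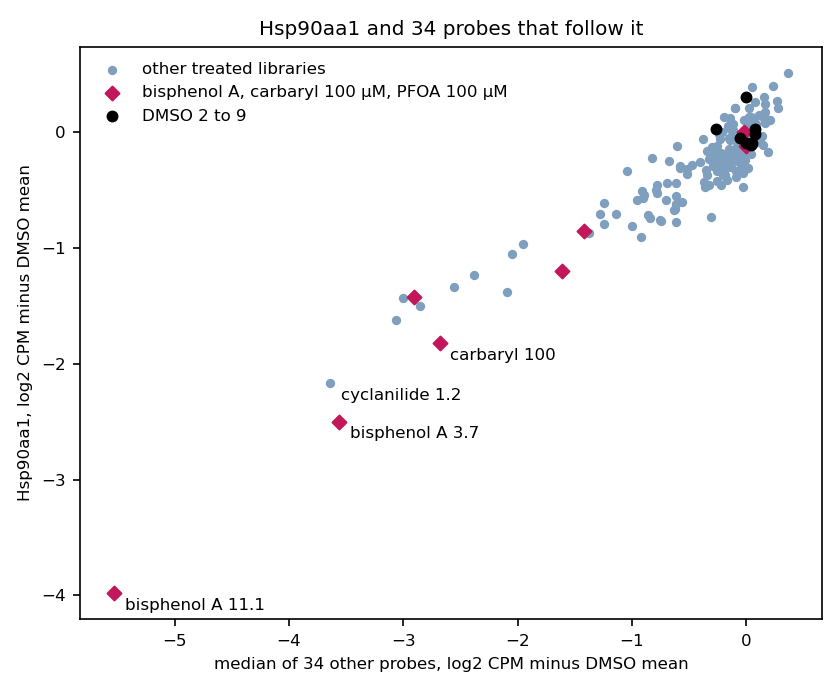
Hsp90aa1 (vertical axis) against the median of 34 probes that follow it (horizontal axis), both as log2 CPM minus the mean of DMSO replicates 2 to 9, 1 point per library. Low Hsp90aa1 comes with low partners in the libraries at the lower left, with bisphenol A 11.1 µM at -3.98 and carbaryl 100 µM at -1.82.

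Bag3 and Dnajb1 moved in opposite directions along the library score. Over the 190 libraries without sulforaphane and DMSO replicate 1 the Pearson correlation with the score was 0.79 for Bag3, -0.831 for Dnajb1, -0.555 for Hspe1, -0.362 for Hspd1 and 0.37 for Hspa8, given as a description of libraries that share plates and controls. In the 11 treated libraries with a score above 0.5 Bag3 ran from 131 to 310 CPM (median 202) and was above the highest control in 7, and Hspa8 was so in 9, where 18.3% of all pairs were above and 21.8% below. None of the 163 other dose libraries had Bag3 above that value. Dnajb1 ran from 3.04 to 12.8 CPM in the 11 libraries, and DMSO replicate 5 had 6.95 CPM without any treatment. That replicate defines the score, so its place on this pattern is no added instance. The 11 libraries are 4 of triticonazole, 2 of fludioxonil and 1 each of etoxazole, triflumizole, alachlor, ametryn and PFOA, at doses from 0.14 to 100 µM. With the score as a covariate the trend of Hspd1 with PFOA was 1.13 and those of Hspa8, Dnaja1 and Bag3 with dithiopyr were 0.63, 0.66 and 0.75, all still called.

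**Figure D4:**
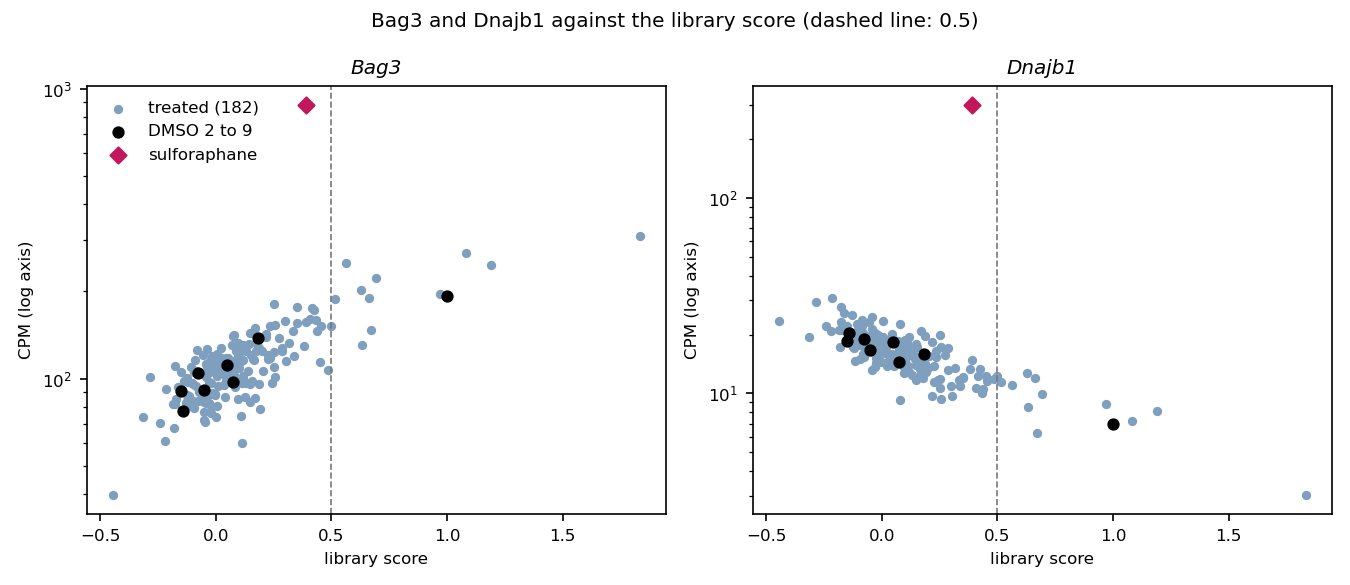
CPM of Bag3 (left) and Dnajb1 (right, log axes) against the library score, 1 point per library, with the threshold of 0.5 dashed. Bag3 climbs and Dnajb1 drops along the score, and sulforaphane lies above both clouds at 874 and 297 CPM. DMSO replicate 5 has a score of 1 by definition.

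Counted as runs from the highest dose downward in which every library lay outside the 8 controls, the members had 54 runs above and 40 below among 232 pairs of gene and chemical, where 15.7% and 17.7% of all pairs had one. Runs of at least 2 doses numbered 19 above and 17 below (4.67% and 4.95% of all pairs). These counts pool the controls of 3 plates. With DMSO replicate 1 as a control the 94 runs became 50 and the 36 longer ones 17, and against only the 2 or 3 controls of a library's own plate, a narrower range, they became 162 and 83. Hspa8 gave 13 above and 3 below and Dnaja1 10 and 2, whereas Hsp90aa1 gave 2 above and 18 below and Hspb1 2 and 12. Dnajb1 and Hspe1 each had 8 above, none of Dnajb1 longer than 1 dose, and Hspd1 had 8 above and 0 below. Several runs of Hspa8 reach down to the lowest dose, as with PFOS (12331 to 13998 CPM over 6 doses), dichlobenil and hexaconazole. In these series all libraries lay above the controls, without a dose trend. The doses of each sat in adjacent wells, so chemical and well position cannot be told apart. The lowest-dose libraries alone had Hspa8 above the controls in 9 and below in 8 of 29, and Dnaja1 in 9 and 12 (8.97% and 9.05% of all pairs).

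Among themselves the members formed loose groups over the libraries without DMSO replicate 1. Hspa8 went with Dnaja1 (r = 0.773) and Bag3 (0.705), and Dnajb1 with Hspe1 (0.67). Dnajb1 and Bag3, the strongest responders to sulforaphane, had r = -0.113, which is -0.562 without that library. Hspd1 and Hspe1, despite their shared promoter region, had 0.442. The probes most like the median of the members were Ahsa2, an HSP90 cochaperone homologue (r = 0.851), the kinase Plk2 (0.778), the AP-1 gene Fosl1 (0.75), Psma5 and Ddx39a (both 0.741), Alyref (0.735), Cnot9 (0.73), Ahsa1 and Wipi2 (both 0.72) and Emg1 (0.718). Without sulforaphane these values lay between 0.681 and 0.846.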

How the data were processed

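Probe counts, whole numbers in the table deposited by the authors, were taken as raw because their totals differ between libraries (582071 to 11249014). Bowtie is the aligner named in the submitters' processing notes. Its version, the genome build and the probes' sequences are not given in the sources used here. CPM and log2 CPM (prior count 2, for correlations and the library score, which used 5527 probes) were computed from these counts. Ligation products are amplified and are not independent molecules. Tests were run with edgeR 4.0.16 in R 4.3.3 (quasi-likelihood, TMM factors, a plate term), with DMSO replicates 2 to 9 as controls. Through the plate term a fitted change is set against the controls of the library's own plate, and controls of other plates inform the spread. P-values were adjusted by Benjamini-Hochberg over the 11055 probes that reached 10 counts at median depth in 6 or more libraries. Trends use log2(1 + dose), single libraries an indicator, and related chemicals a contrast of slopes. On simulated data 33% and 92% of changes of 1 and 2 on the log2 scale were recovered for the dithiopyr trend, and 8% and 57% for the sulforaphane library. Each share is of 100 changed probes among the 11055 fitted, drawn from those above a minimum count in the controls. The simulation gave all probes the same dispersion and held no plate effect and no shift of most probes. Alternatives were DESeq2 1.42.0, other scalings, filters, dose scores and plate terms, and left-out libraries; the library score was added after the data were seen. The members and lists were chosen with earlier results of these data known. Named are the members, per pathway list and comparison up to 3 called genes with the smallest adjusted p, the 10 probes most like the median of the members, and Hsf1. Other names (Hspa1a where it is not among those 3, markers, and the probes that follow Hsp90aa1) were chosen after their values were seen.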

Additional observations from a re-analysis of the deposited data

Results flagged for a closer look

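Each of the 8 members was read among DMSO replicates 2 to 9 and among all 9 DMSO libraries, and a value far from the others was seen 6 times. Chance gives such a value in about 1 of 20 independent groups. These groups share the same libraries, so the 6 values are not independent of each other. Among all 9 DMSO libraries replicate 1 stood apart with 1620 CPM of Hspa8 (the other 8 at 9226 to 11250), 16.5 CPM of Hsp90aa1 (84.5 to 112) and 4325 CPM of Hspd1 (167 to 269). Replicate 1 was not a control in the main comparisons, and its 4325 CPM of Hspd1 is also a signal in data they leave out. Among replicates 2 to 9, replicate 5 stood apart with 6.95 CPM of Dnajb1 and 248 CPM of Hspb1, and replicate 7 with 112 CPM of Hsp90aa1. The dose trends of PFOS and PFOA differed, by edgeR's test of the difference, in Hspb1 (0.67 higher with PFOS) and in Hspd1 (-1.02, lower with PFOS).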

How the results depend on the processing

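Counts of member calls below are from edgeR unless DESeq2 is named. Over the 29 dose trends the 5 calls became 0 with DMSO replicate 1 (22 at an unadjusted p under 0.05), 10 with DESeq2, 11 without the plate term, 2 with a dose score by rank, 1 without the highest dose (Hsp90aa1 with bisphenol A) and 11 with the library score as a covariate, an alternative chosen after the data were seen; leaving out 1 DMSO library in turn gave 4 to 8, the 8 without replicate 5. Over highest doses the 11 calls became 0 with replicate 1 (7 at an unadjusted p under 0.05), and 6 to 27 without 1 DMSO library, the 27 without replicate 5. Over reference libraries 5 calls stayed at 4 to 7, and at 5 to 6 without 1 DMSO library. For related chemicals the 2 calls became 0 with replicate 1 (1 at an unadjusted p under 0.05) and 1 without the highest dose, and were 2 without any 1 DMSO library. The 138 pathway calls became 14 with replicate 1 and 228 with DESeq2, and 98 to 288 without 1 DMSO library (288 without replicate 5). The 94 dose runs became 50 with replicate 1 and 162 with only the controls of the own plate, the latter chosen after the data were seen. The sign turned with replicate 1 for Hspd1 with imazalil (trend -2.11, highest dose -2.07) and Tomm34 with dithiopyr (-0.0631), and without the highest dose for Hspd1 with imazalil (-0.064) and Hspa1a with cyproconazole (-0.35). Fewer libraries enter where doses are left out, a plate's own controls span a narrower range, and the cause of the other shifts was not tested. Depth limits sulforaphane most, at 582071 counts. No paired analysis was possible because each treated group is 1 library and only DMSO libraries carry replicate numbers, which pair nothing.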
